A study of Mus musculus with 6 samples.

Results

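The genes described are 37 actins, myosins, tropomyosins and their partners, with the transcription factors and kinases that act on them, taken as a list of contractile cytoskeleton genes and targets of serum response factor (SRF). A gene was read where the array carried a probe set annotated to it alone, and where there were several, the brightest on average stood for the gene. This left 36 of the 37 genes, out of 18193 genes measured in all. Rock2 was not analysed here.

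Expression was measured on 6 arrays, 1 for each of 6 lines of mouse embryonic fibroblasts (MEFs), which are connective tissue cells grown from embryos. Lines E, H and J were FHL2-/- and lines E, F and I were WT, the latter called wild type below. All 6 lines had become immortal spontaneously in culture and are labelled as clones, no treatment or age is given for either genotype, and a letter shared between genotypes does not pair the lines. FHL2 is a LIM-domain adaptor protein, itself encoded by an SRF target gene, that can bind SRF and other transcription factors. The question put to these arrays is how loss of this protein goes with the fibroblast transcriptome.

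SRF binds the CArG box, a DNA element that begins with CC, ends with GG and has A or T in between. It works with 2 families of cofactors. The myocardin-related factors, encoded by Mkl1 and Mkl2, are held in the cytoplasm by monomeric actin and enter the nucleus when actin is drawn into filaments, and they switch on genes of the contractile apparatus. The ternary complex factors respond to growth factor signals and drive immediate early genes such as Egr1. Fibroblasts use nonmuscle actin and myosin for stress fibres, and in their contractile state, as myofibroblasts, they also make proteins of smooth muscle such as smooth muscle actin and SM22.

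The values are log2 intensities, so a difference of 1 is 2-fold. A difference is the knockout mean less the wild type mean, with the standard error (SE) of a limma fit over all 18193 genes, n = 3 clones per genotype. Genes are said to rise or fall where the p-value adjusted over all genes lay under 0.05. Since no label ties the clones to separate embryos, these p-values reflect clone-to-clone spread, which may be technical. The number of arrays limits the precision. Less RNA per cell and fewer cells with the RNA cannot be told apart in such bulk samples.

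Fhl2 fell by 3.02 (SE 0.35, limma adjusted p = 0.004), from 8.57 to 9.88 in wild type to 6.01 to 6.57 in knockout clones; an exact two-sided permutation test gave p = 0.10, the smallest that 3 against 3 clones allow. No source here says whether its probe set lies in the deleted part. The 8 fibroblast markers all read between 9.14 and 13.62, and their mean lay between 11.93 and 12.13 in every clone. Pdgfra rose by 1.76, Thy1 fell by 1.34 and Pdgfrb fell by 0.64 (limma adjusted p = 0.0247, 0.0262 and 0.0321). All 6 skeletal muscle and 4 cardiac markers read below the median of gene means (5.92), at 2.11 to 4.62 and 2.87 to 5.26, as did both endothelial and both leukocyte markers and 3 of 4 epithelial markers. Epcam, the epithelial marker above it, read 7.24 to 7.84 and rose by 0.43, and the cardiac marker Tnni3 rose by 0.67 (limma adjusted p = 0.0327 and 0.0316). Clone H was the least like its group. Its correlation with clones E and J over genes was 0.9640 and 0.9676, against 0.9906 between E and J, and Xist read 9.82 in H and 4.69 to 5.11 in the other 5 clones. Results are therefore given with and without clone H. Fits without it compare knockout clones E and J with the 3 wild type clones. Because clone H was picked from these same values, leaving it out can by itself lower a p-value. A fall without clone H thus describes clones E and J and is no separate support for a fall in the knockout.

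With all 6 clones, 6 of the 36 genes fell, 1 rose and 29 did not pass, beside 10% of all genes lower, 9.04% higher and 19% in either direction. Actg2, Tnnt2, Tpm4, Tagln2, Rock1 and Myh9 fell, and Egr2 rose. The median difference over the 36 genes was -0.35, and over all genes 0.04. Without clone H, 17 of the 36 fell and 2 rose, beside 13.4% and 12.7% of all genes, and the median was -0.56. Leaving out knockout E, or either of the wild type clones E and F, left 2 genes that fell. Leaving out knockout J or wild type I left 3. Myh9 and Tnnt2 passed whichever of the 6 clones was left out.

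**Figure D1:**
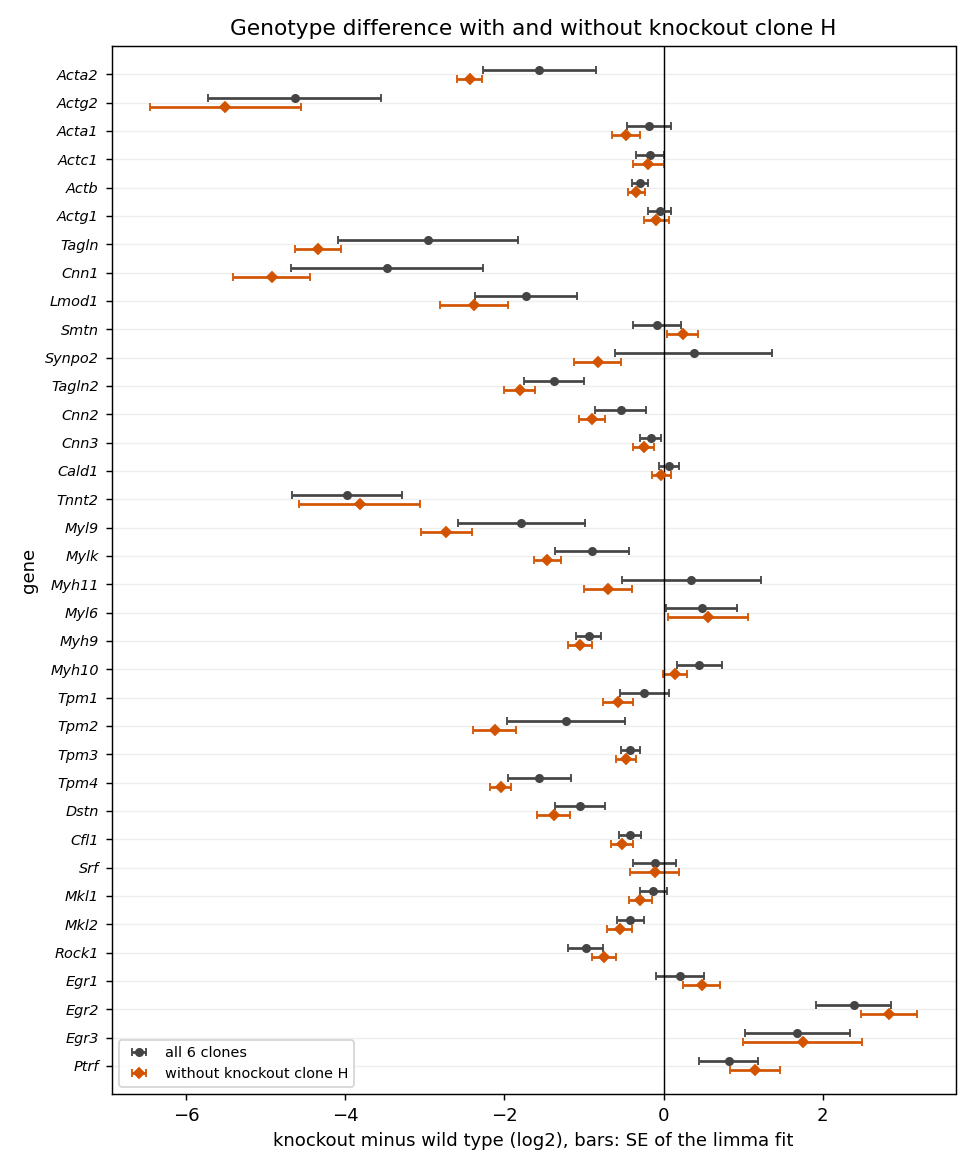
Difference between genotypes (knockout minus wild type, log2, horizontal axis) for each of the 36 genes, with all 6 clones (circles) and without knockout clone H (diamonds); bars are the SE of the limma fit. For Tagln, Cnn1, Acta2 and Myl9 the diamonds lie further below 0 and have shorter bars than the circles.

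The stretches upstream of 5 genes are shown because the SRF element can be read in them directly. They are the 200 bases before the transcription start in RefSeq (build GRCm38.p6), written 5′ to 3′ on the gene's strand, with CArG boxes and near matches in capitals. A CArG box is CC, 6 bases of A or T and GG, and a near match has G or C at 1 of these 6 bases; the 10 bases read alike as a class on either strand, so both strands were covered. Acta2 (chr19:34255374-34255573, minus strand), Myl9 (chr2:156775264-156775463, plus strand) and Cnn2 (chr10:79988400-79988599, plus strand) were low in clones E and J alone. Actg1 (chr11:120348496-120348695, minus strand) did not differ beyond its spread, and Egr2 (chr10:67537669-67537868, plus strand, 1 of its 5 windows) rose.
Acta2: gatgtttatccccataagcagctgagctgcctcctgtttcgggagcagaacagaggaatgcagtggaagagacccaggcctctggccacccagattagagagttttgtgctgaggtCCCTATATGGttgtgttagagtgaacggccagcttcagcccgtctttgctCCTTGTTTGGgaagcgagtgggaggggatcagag
Myl9: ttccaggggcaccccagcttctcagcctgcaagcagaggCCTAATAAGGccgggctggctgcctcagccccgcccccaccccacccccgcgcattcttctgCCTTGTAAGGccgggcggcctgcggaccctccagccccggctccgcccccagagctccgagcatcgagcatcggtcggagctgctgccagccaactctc
Cnn2: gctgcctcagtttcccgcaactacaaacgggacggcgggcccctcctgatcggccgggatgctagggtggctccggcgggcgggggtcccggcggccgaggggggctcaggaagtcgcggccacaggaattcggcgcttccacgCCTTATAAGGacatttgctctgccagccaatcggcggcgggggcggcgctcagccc
Actg1: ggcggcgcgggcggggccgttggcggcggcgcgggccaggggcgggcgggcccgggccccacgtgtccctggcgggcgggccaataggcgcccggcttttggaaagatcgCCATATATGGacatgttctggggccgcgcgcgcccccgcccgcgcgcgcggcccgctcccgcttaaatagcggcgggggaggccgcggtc
Egr2: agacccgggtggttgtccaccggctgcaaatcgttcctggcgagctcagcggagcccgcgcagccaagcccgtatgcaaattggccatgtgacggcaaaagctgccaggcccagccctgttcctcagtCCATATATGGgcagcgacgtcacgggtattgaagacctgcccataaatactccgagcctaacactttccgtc

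The Acta2 stretch holds near matches whose first bases lie 84 and 34 bases before the start, and that of Myl9 a CArG box at 161 and a near match at 99 bases. The box of Cnn2 begins 56 bases before the start, that of Actg1 90 bases and that of Egr2 72 bases. Over windows of 300 bases (250 before and 50 after the start), the RefSeq table used here held at least 1 window for 30 of the 37 genes. Windows of Actg2, Actb, Tagln, Myh11, Rock1, Egr1 and Egr3 were not analysed here. Of the 30 genes with a window, 8 held a CArG box (Acta1, Actc1, Actg1, Cnn2, Myl9, Myl6, Srf and Egr2), or 26.7%, against 1.81% of all 27025 genes with a window. Srf itself holds CCATATAAGG and CCATAAAAGG, beginning 82 and 62 bases before its start. Of these 8 genes, 1 (Egr2) passed with all clones, where 19% of all genes passed in either direction. The Cnn1, Lmod1, Mylk, Tagln2 and Tpm4 windows held no match. A box was held by 1 of the 7 smooth muscle genes with a window and by 3 of the 11 nonmuscle genes. The genes were listed in part as SRF targets, so a share above that of all genes was built into the choice. It is not a separate result. These are matches of letters in a short window and not measured sites.

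Most smooth muscle genes were low in knockout clones E and J and near wild type in clone H. Of the 10 smooth muscle genes, 1 fell with all clones, where 10% of all genes fell, and 7 fell without clone H, where 13.4% did. The median difference was -1.64 with all clones and -2.41 without clone H, while the median of clone H minus the wild type mean was -0.03. In 8 of the 10, clones E and J both lay below all wild type clones and clone H lay at or above the lowest of them, a pattern seen in 6.2% of all genes.

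Acta2, the smooth muscle alpha-actin that marks myofibroblasts, read 10.71 in knockout clone E, 10.46 in J and 13.25 in H, against 13.24, 12.86 and 12.98 in the wild type (E, F, I). Clone H was thus level with the highest wild type clone, while E and J lay apart from all 4 others. With all clones the difference was -1.56 (SE 0.71), which did not pass (limma adjusted p = 0.186), and without clone H Acta2 fell by 2.44 (SE 0.16, limma adjusted p = 3.20e-04), or 5.44-fold. With array weights it passed (-2.13, limma adjusted p = 0.0201). These weights were set from the same values and counted clone H least (0.385, against 1.07 to 1.56 for the other clones). That fit is therefore close to leaving clone H out and is no separate support. Its other 2 probe sets, at 2.78 to 6.79, gave -0.21 and -0.14, and the value was -0.64 with the 3 averaged and -0.21 without x, s and a probe sets.

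Tagln, which encodes the actin-bundling protein SM22, was also low in clones E and J and near wild type in H. It read 8.14 in knockout clone E, 9.01 in J and 12.76 in H, and 13.25, 12.64 and 12.88 in the wild type clones. Its difference was -2.96 (SE 1.13, limma adjusted p = 0.123), and without clone H it fell by 4.35 (SE 0.29, limma adjusted p = 3.50e-04), or 20.4-fold. Clone H lay inside the wild type range.

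Cnn1, the calponin of smooth muscle that binds actin and slows myosin, read 5.58 and 5.09 in knockout clones E and J and 9.66 in H. The wild type clones read 11.23, 9.54 and 10.02, so clone H lay inside their range. The difference was -3.48 (SE 1.21, limma adjusted p = 0.0975), and without clone H it fell by 4.93 (SE 0.48, limma adjusted p = 0.00109). Clone H exceeded the mean of E and J by 4.33, the widest such gap among the 36 genes, while E and J differed by 0.49.

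Lmod1, leiomodin, which starts new actin filaments in smooth muscle, read 5.76 in knockout clone E, 5.20 in J and 7.44 in H, and 8.73, 7.31 and 7.54 in wild type. Without clone H it fell by 2.38 (SE 0.43, limma adjusted p = 0.00933). With all clones it did not pass (-1.73, SE 0.64, limma adjusted p = 0.114).

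Of the 3 smooth muscle myosin genes, Myl9 and Mylk were low in clones E and J and near wild type in H. Myl9, the regulatory light chain whose phosphorylation turns on contraction, read 8.89 in knockout clone E, 9.95 in J and 12.26 in H, beside 12.42, 11.88 and 12.16 in wild type. Mylk, the kinase that phosphorylates this chain, read 7.36 and 7.41 in E and J, 9.05 in H and 8.72, 8.67 and 9.15 in wild type. Without clone H, Myl9 fell by 2.73 (SE 0.32) and Mylk by 1.46 (SE 0.17), each with a limma adjusted p of 0.00209. With all clones the differences were -1.79 (SE 0.80) and -0.90 (SE 0.46), with limma adjusted p = 0.177 and 0.230. All 3 probe sets of Mylk showed clones E and J below wild type and clone H in or above its range.

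In 2 genes clone H went past wild type. Myh11, the smooth muscle myosin heavy chain, read 6.89 in clone H, 3.90 and 3.56 in clones E and J, and 5.01, 4.02 and 4.25 in wild type. Synpo2, a protein of the Z-disc and of actin bundles, read 7.45 in clone H, 3.61 and 4.04 in E and J, and 5.16, 4.14 and 4.66 in wild type. Clone H exceeded the wild type mean by 2.46 and 2.80. The other 5 clones read below the median of gene means in both genes, and neither passed with all clones (0.35 and 0.38, limma adjusted p = 0.819 and 0.827) or without clone H (-0.70 and -0.83, limma adjusted p = 0.143 and 0.0961). The other probe set of Myh11 read 2.97 to 3.08 in all clones.

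Actg2, the gamma-actin of enteric smooth muscle, was the smooth muscle gene that fell with all clones. It read 3.66 in knockout clone E, 4.36 in J and 6.61 in H, and 11.23, 9.71 and 7.62 in the wild type (E, F, I). The genotypes did not overlap, but the wild type clones themselves spanned 3.61. Actg2 fell by 4.64 (SE 1.09, limma adjusted p = 0.0311), and the call was lost without knockout clone E or J or wild type clone E or F (limma adjusted p = 0.0889 to 0.102). Smtn, smoothelin, was the exception to the pattern. It read 8.58 and 8.56 in clones E and J and 7.62 in H, against 8.68, 8.24 and 8.08 in wild type, so clone H was the lowest clone (-0.08, SE 0.30, limma adjusted p = 0.885).

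**Figure D2:**
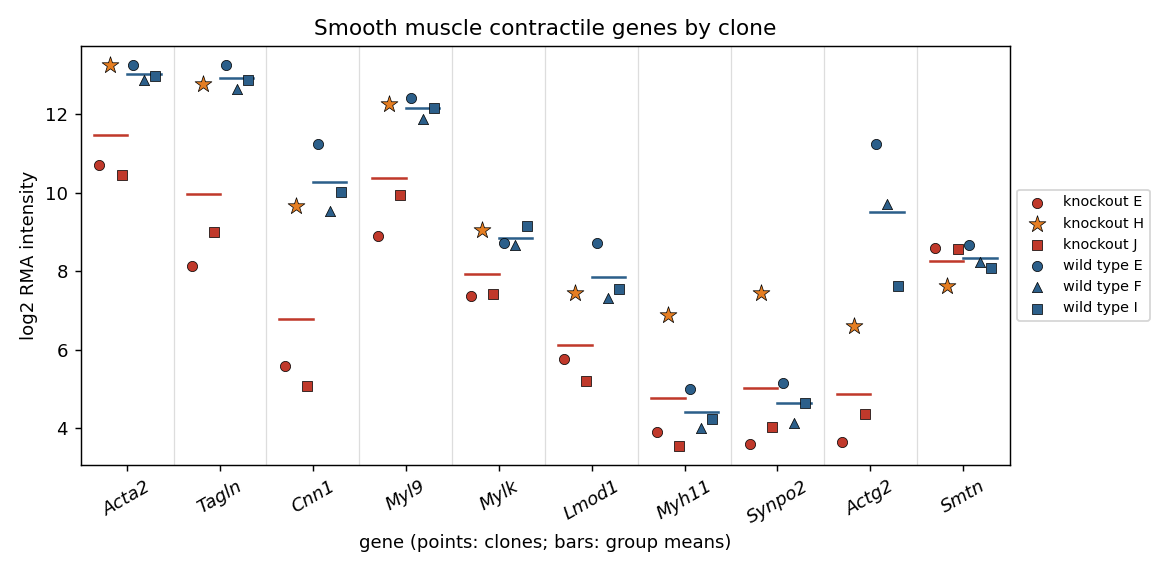
Log2 intensity (vertical axis) of the 10 smooth muscle genes in each clone: knockout clones E and J in red, knockout clone H as an orange star, wild type clones in blue, with bars at the group means. For Acta2, Tagln, Cnn1, Myl9, Mylk and Lmod1 the star sits with the blue points and the red points lie below.

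Nonmuscle genes differed less in size between the genotypes. Of 12 nonmuscle genes, 3 fell with all clones (Tagln2, Tpm4 and Myh9), beside 10% of all genes, and 7 without clone H, beside 13.4%. Their median difference was -0.42, or -0.49 without clone H, and in 7 of the 12 all knockout clones lay below all wild type clones, where 18.2% of all genes did. In 2 of the 12 (Cnn2 and Cnn3) clones E and J lay below wild type and clone H did not, a pattern seen in 6.2% of all genes. For Cnn3 knockout clone E (12.05) lay just under wild type clone F (12.09), and none of its other probe sets showed the pattern. Whether the smooth muscle and nonmuscle classes differ from each other was not tested.

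Myh9, the heavy chain of nonmuscle myosin IIA, which pulls on stress fibres, read 10.87 in knockout clone E, 11.20 in H and 10.86 in J, and 12.06, 11.68 and 12.00 in wild type. All knockout clones, clone H among them, lay below all wild type clones. It fell by 0.94 (SE 0.16, limma adjusted p = 0.0108), or 1.91-fold. Of its 5 probe sets, 4 fell when each was tested, and the fifth, of low level, read 4.91 to 5.07 over the knockout clones and 4.18 to 5.14 over wild type. Myh10, the heavy chain of myosin IIB, went the other way in sign without passing (0.45, SE 0.28, limma adjusted p = 0.317). It read 12.00 in clone H, above all 5 other clones (10.74 to 11.15). Myl6, the essential light chain, read 8.26 to 8.60 in knockout clones and 9.04, 7.27 and 7.56 in wild type (0.48, SE 0.45, limma adjusted p = 0.516), and leaving out wild type E made it pass (1.02, limma adjusted p = 0.0289).

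Actb and Actg1, the cytoplasmic actins, lay near the top of the scale, whose highest value was 13.70. Actb read 13.24, 13.44 and 13.34 in the knockout (E, H, J) and 13.68, 13.57 and 13.63 in wild type. The groups did not overlap, the difference was -0.29 (SE 0.10), and it did not pass (limma adjusted p = 0.0956) except with quantile normalization again or array weights (0.0454 and 0.0476). Its other probe set read 8.37, 7.96 and 8.94 in the knockout (E, H, J) and 8.91, 8.54 and 8.58 in wild type. There the groups overlapped and clone H was lowest (-0.25, limma adjusted p = 0.564). The 3 control probe sets of Actb gave -0.33 at the 3′ end, -0.40 at the 5′ end and -0.42 in the middle. Actg1 read 12.79 to 12.94 over the knockout clones and 12.63 to 13.06 over wild type (-0.05, SE 0.14, limma adjusted p = 0.844), with the groups overlapping fully.

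The nonmuscle relatives of SM22 and calponin did not all move alike. Tagln2, transgelin-2, read 8.54 in knockout clone E, 8.69 in J and 9.90 in H, and 10.72, 10.42 and 10.12 in wild type. It fell by 1.38 (SE 0.38, limma adjusted p = 0.0485), and the call was lost with the gene's 3 probe sets averaged (0.0595), with values normalized by quantiles again (0.0559), with a trended prior (0.0509) and without any clone other than H (0.0867 to 0.156). Cnn2, the calponin of many nonmuscle cells, read 10.93 and 10.80 in E and J, 11.95 in H and 12.03, 11.56 and 11.70 in wild type. Without clone H it fell by 0.90 (SE 0.16, limma adjusted p = 0.00964), and with all clones it did not pass (-0.54, limma adjusted p = 0.295). Cnn3 lay between 11.74 and 12.20 in every clone and did not pass in any fit run here.

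Dstn and Cfl1 encode destrin and cofilin, which sever actin filaments and supply monomers. Dstn read 9.93 in knockout clone E, 9.47 in J and 10.68 in H, and 11.25, 10.78 and 11.19 in wild type, so the groups did not overlap. It did not pass with all clones (-1.05, SE 0.31, limma adjusted p = 0.0646) and fell by 1.38 without clone H (limma adjusted p = 0.00474). Cfl1 read 11.31, 11.50 and 11.08 in clones E, H and J and 11.84, 11.73 and 11.56 in wild type (-0.42, SE 0.14, limma adjusted p = 0.0968), and without clone H fell by 0.52 (limma adjusted p = 0.0387).

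**Figure D3:**
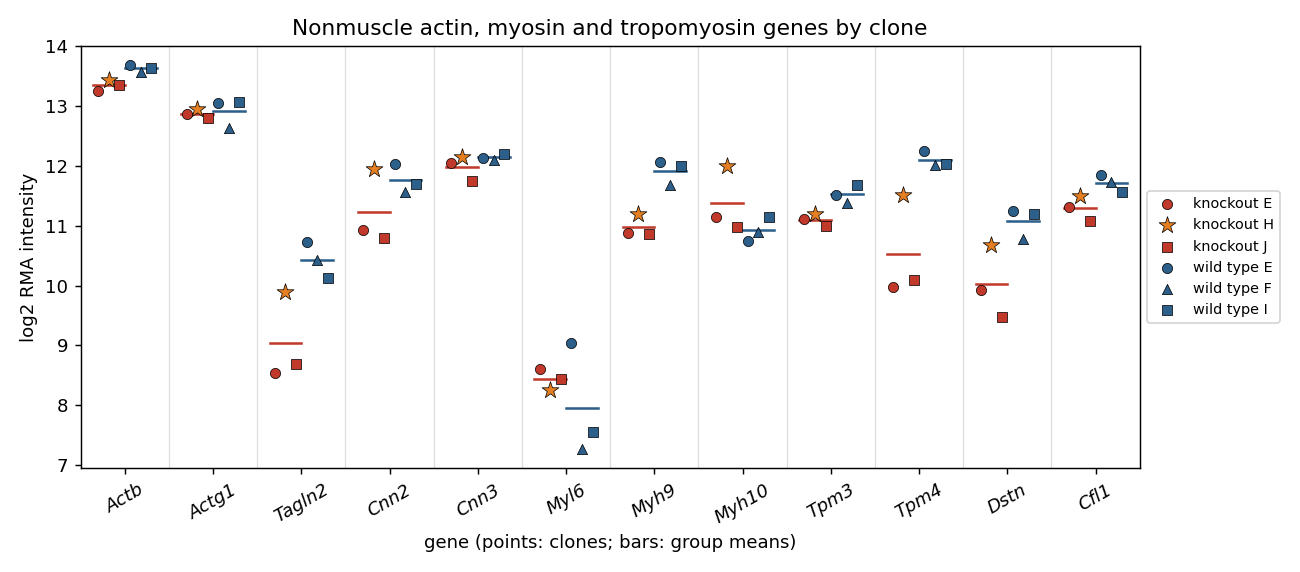
Log2 intensity (vertical axis) of the 12 nonmuscle genes in each clone, with symbols and bars as in the plot of smooth muscle genes. The star of clone H lies below all blue points for Tagln2, Myh9, Tpm4 and Dstn, but higher than the red points.

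Tropomyosins wind along actin filaments and set which myosins can bind. Tpm4, a nonmuscle form, read 9.98 in knockout clone E, 10.10 in J and 11.51 in H, and 12.24, 12.01 and 12.03 in wild type. Clone H lay between the other knockout clones and wild type. Tpm4 fell by 1.56 (SE 0.40, limma adjusted p = 0.0407), a call lost without any clone other than H (0.101 to 0.133), and without clone H its difference was -2.05 (SE 0.13). Tpm3, another mostly nonmuscle gene, read 10.99 to 11.20 over the knockout clones and 11.38 to 11.68 over wild type. Its difference of -0.42 (SE 0.12) lay just outside the threshold (limma adjusted p = 0.0521) and passed without clone H and with array weights, a trended prior, median centring or only genes at or above the median level (0.0262 to 0.0490).

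Tpm2, which makes forms of skeletal and smooth muscle and of fibroblasts, read 9.49 and 9.50 in knockout clones E and J, 12.17 in H and 12.15, 11.17 and 11.53 in wild type. Clone H was the highest of the 6 clones. The difference was -1.23 (SE 0.74, limma adjusted p = 0.306), and without clone H Tpm2 fell by 2.12 (SE 0.27, limma adjusted p = 0.00290). Its probe sets did not agree on clone H. 1 of the other 3 read 6.39 in H against 7.24 to 8.29 in wild type and 5.42 and 5.14 in E and J, and it fell with all clones (-1.95, limma adjusted p = 0.0242). Tpm1 and Cald1, caldesmon, are used by muscle and nonmuscle cells through different splice forms, which these probe sets were not used to tell apart. Tpm1 read 11.83, 12.64 and 11.49 in clones E, H and J against 11.93 to 12.42 in wild type (-0.24, SE 0.31, limma adjusted p = 0.640). Cald1 lay between 11.63 and 12.00 in every clone (0.07, SE 0.13, limma adjusted p = 0.753).

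Genes of cardiac and skeletal muscle were low, with Tnnt2 as the exception. Tnnt2, cardiac troponin T, read 3.77, 3.65 and 4.50 in the knockout (E, H, J) and 8.94, 8.61 and 6.32 in the wild type (E, F, I). Clone H here sat with E and J, unlike in the smooth muscle genes. Tnnt2 fell by 3.98 (SE 0.69, limma adjusted p = 0.0120), with the knockout clones near the level of the skeletal muscle markers, and a second probe set gave -4.32. The remaining probe set read 3.27 to 3.89 in all clones, and it alone was left when x, s and a probe sets were dropped (0.29, limma adjusted p = 0.216). Acta1, skeletal actin, read 4.49 to 5.42 and Actc1, cardiac actin, 3.57 to 4.14 over all clones, below the median of gene means, and neither passed (-0.18 and -0.17, limma adjusted p = 0.705 and 0.548). Their windows are among those that hold a CArG box.

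Srf, Mkl1 and Mkl2 did not pass in either direction. Srf read 8.19, 7.79 and 7.40 in the knockout (E, H, J) and 8.24, 7.46 and 8.01 in wild type, with the groups overlapping (-0.11, SE 0.27, limma adjusted p = 0.823). Its second probe set read 6.57 to 7.05 over the knockout clones and 7.38 to 8.19 over wild type and also did not pass (-0.79), so the 2 probe sets differ in whether the groups overlap. Mkl1 lay between 9.29 and 9.88 in all clones (-0.13, SE 0.17, limma adjusted p = 0.632). Mkl2 read 8.30, 8.68 and 8.28 in clones E, H and J against 8.58, 8.87 and 9.07 (-0.42, SE 0.17, limma adjusted p = 0.152). In Mkl1 and Mkl2 clones E and J lay below all wild type clones and clone H did not, a pattern seen in 6.2% of all genes. For Mkl1 knockout clone J (9.56) lay just under wild type clone F (9.59). The other probe sets of Mkl2 (0.06 and -0.04) did not show the pattern.

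Rock1, a kinase that raises myosin phosphorylation and stabilises filaments, read 8.81 in knockout clone E, 8.15 in H and 8.89 in J, and 9.67, 9.76 and 9.37 in wild type. Clone H was the lowest clone, opposite to its place in the smooth muscle genes. Rock1 fell by 0.98 (SE 0.22, limma adjusted p = 0.0284), and 4 of its 5 probe sets fell when each was tested. The call was lost without knockout clone E or any wild type clone (0.0509 to 0.100).

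Of the 3 immediate early genes, Egr2 passed, where 19% of all genes passed in either direction. Egr2, a zinc-finger transcription factor, read 8.95 and 9.19 in knockout clones E and J, 7.70 in H and 5.96, 5.76 and 6.96 in wild type. The genotypes did not overlap, and clone H was the knockout clone nearest to wild type. Egr2 rose by 2.39 (SE 0.47, limma adjusted p = 0.0186), or 5.23-fold, with a second probe set at 1.97. The call was lost without knockout clone E or J or wild type clone E or F (0.0611 to 0.0772). Egr3 read 6.62, 6.63 and 7.08 in knockout clones and 4.95, 3.75 and 6.59 in wild type, where clone I lay just under the lowest knockout clone; it did not pass (1.68, SE 0.66, limma adjusted p = 0.134) except without wild type clone I (2.42, limma adjusted p = 0.0220). Its second probe set read 5.84 to 5.97 over the knockout clones and 5.51 to 5.55 over wild type and rose by 0.37 (limma adjusted p = 0.0413). Egr1 was high in every clone (11.68 to 12.58) and overlapped fully (0.21, SE 0.30, limma adjusted p = 0.677).

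Ptrf, or cavin-1, which coats caveolae, read 10.79 in knockout clone E, 10.95 in J and 9.90 in H, and 10.29, 9.18 and 9.70 in wild type. Clones E and J lay above wild type and H inside its range, a pattern seen in 9.5% of all genes. In its other 2 probe sets clone H also lay above all wild type clones, at 7.47 against 6.42 to 7.07 and at 6.41 against 5.18 to 5.65, and the first of these rose (1.35, limma adjusted p = 0.0234). Ptrf did not pass with all clones (0.82, SE 0.37, limma adjusted p = 0.179) and rose by 1.15 without clone H (limma adjusted p = 0.0368). It also passed with its 3 probe sets averaged (0.99, limma adjusted p = 0.0172).

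**Figure D4:**
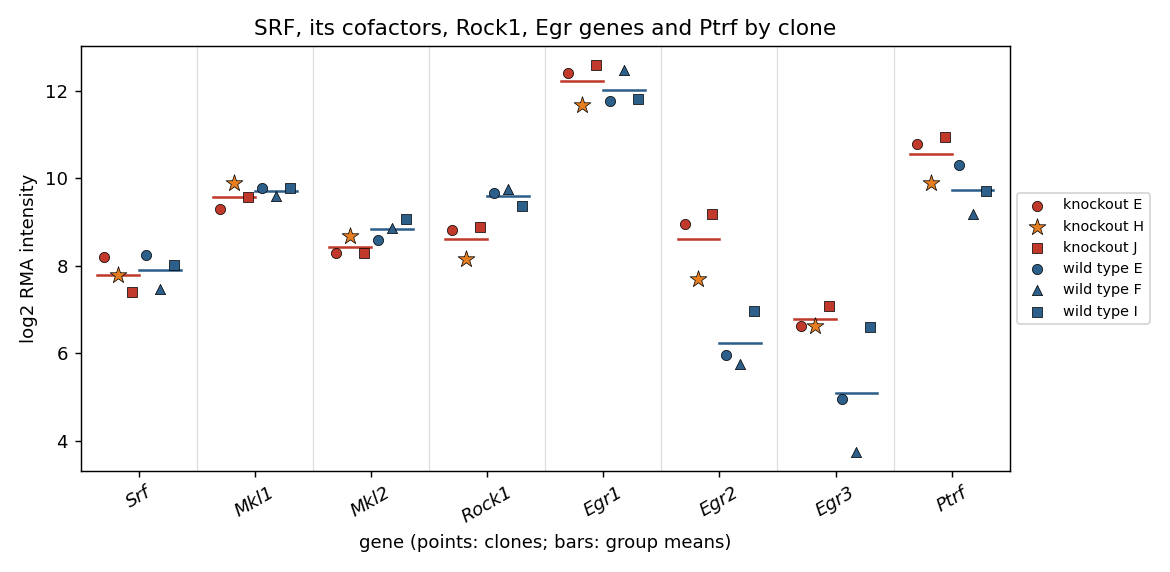
Log2 intensity (vertical axis) of Srf, Mkl1, Mkl2, Rock1, the Egr genes and Ptrf in each clone, with symbols and bars as in the plot of smooth muscle genes. Rock1 is lower and Egr2 higher in all knockout clones, while Srf, Mkl1 and Egr1 overlap.

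Set beside clones E and J, clone H read higher in most smooth muscle genes. It exceeded the mean of E and J by more than 1 in 13 of the 36 genes, where 3.94% of all genes did, and lay more than 1 below it in 1 (Egr2), where 2.9% of all genes did. Of the 13 genes, 9 were smooth muscle, 3 nonmuscle (Tagln2, Cnn2 and Tpm4) and the last was Tpm2. The median of clone H minus the mean of E and J was 2.75 over the 10 smooth muscle genes, 0.33 over the 12 nonmuscle genes and -0.03 over all genes. Clones E and J themselves differed by a median of 0.46, 0.14 and 0.15. Over the 36 genes, 15 had E and J below wild type with H at or above its lowest clone, or 41.7% against 6.2% of all genes, and 10 had all knockout clones below all wild type clones, against 18.2% of all genes. Clone H is 1 array, so these are values without a test.

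**Figure D5:**
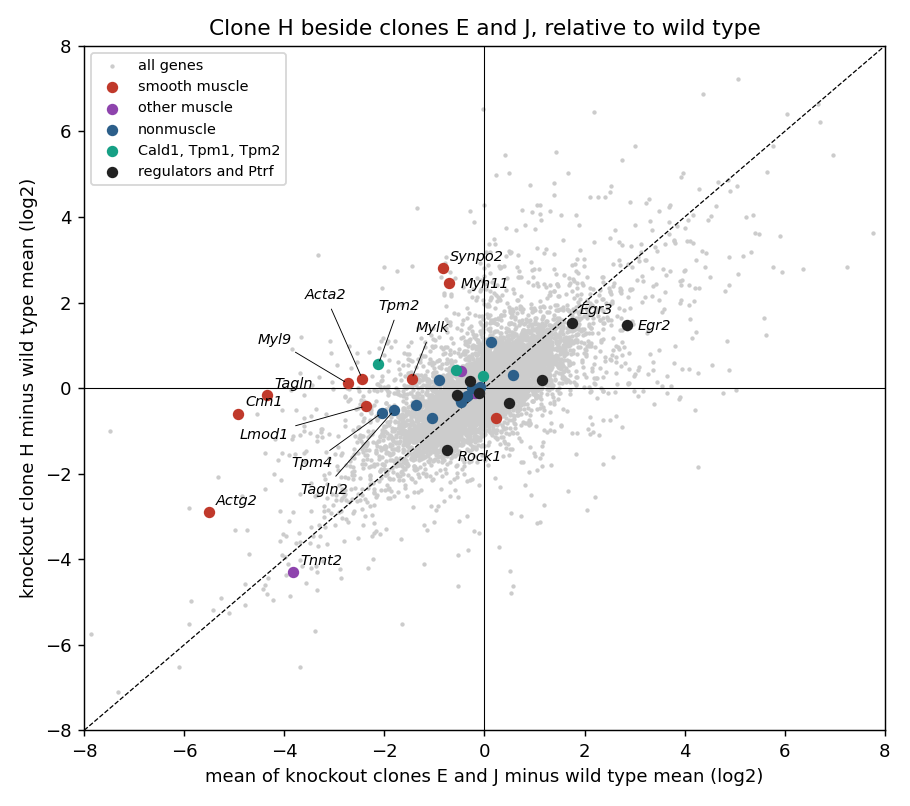
For every gene, the mean of knockout clones E and J minus the wild type mean (log2, horizontal axis) against knockout clone H minus the wild type mean (log2, vertical axis); the dashed line marks equal values and coloured points are the 36 genes by class. Tagln, Cnn1, Myl9, Acta2 and Tpm2 lie far to the left near 0 on the vertical axis, and Tnnt2 lies close to the dashed line.

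Some other values also set clone H apart from clones E and J. The 3′ minus 5′ difference of the actin control probe sets, a measure of RNA or labelling quality, was 0.196 and 0.235 in clones E and J, 0.103 in H and 0.093 to 0.133 in wild type clones. That of Gapdh did not separate E and J from H (-0.119, -0.046 and -0.045). Of the 5 pericyte and smooth muscle markers, 3 read more than 1 higher in clone H than in E and J: Mcam, an adhesion molecule (7.57 against 4.57 and 5.26; 8.25 to 9.34 in wild type), Cspg4, the NG2 proteoglycan (8.60 against 6.65 and 6.84; 5.47 to 6.85 in wild type) and Rgs5, a regulator of G proteins (5.24 against 3.62 and 3.43; 3.41 to 3.79 in wild type). In Cspg4 and Rgs5 clones E and J lay inside the wild type range. In Mcam all knockout clones, clone H among them, lay below it, and Mcam fell with all clones (-2.95, SE 0.76, limma adjusted p = 0.0412). The mean of the 5 markers was 5.64, 5.90 and 6.79 in clones E, J and H and 6.29 to 6.97 in wild type. Des, desmin, read 4.96 in H, 5.20 and 5.28 in E and J and 5.04 to 6.32 in wild type, and Itga8, an integrin subunit, 7.58 in H, 8.15 and 8.67 in E and J and 8.49 to 8.94 in wild type, so both were lowest in clone H. Xist was also far higher in clone H (9.82) than in the other clones (4.69 to 5.11). The part of RNA quality, of such cells or of the difference seen in Xist in the results was not tested.

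Of 23 further targets of SRF with myocardin-related factors, 4 fell and 2 rose with all clones, beside 10% of all genes lower and 9.04% higher, and 14 fell and 2 rose without clone H, beside 13.4% and 12.7%. The number that fell was 13 with array weights, which counted clone H least. It was 2 without knockout E, 1 without knockout J, wild type F or wild type I, and 0 without wild type E. Their median difference was -0.94, or -1.28 without clone H. Ankrd1, a mechanically induced nuclear protein, fell by 2.40 (SE 0.41, limma adjusted p = 0.0113), Csrp1, a LIM protein of actin fibres, fell by 2.43 (SE 0.58, limma adjusted p = 0.0327) and Tuft1, tuftelin, fell by 2.01 (SE 0.37, limma adjusted p = 0.0144). In each of these 3 genes clone H lay between the other knockout clones and wild type, for instance at 9.71 for Ankrd1 against 8.06 and 8.71 in E and J and 10.96 to 11.46 in wild type. Csrp2, a relative of Csrp1 found in smooth muscle, rose by 1.80 (SE 0.23, limma adjusted p = 0.00522). The other gene that fell was Filip1l and the other that rose Sphk1, both named after their values were seen. Clones E and J lay below wild type with clone H at or above its lowest clone in 10 of the 23 genes, where 6.2% of all genes did.

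Among 9 immediate early targets of SRF with ternary complex factors, 1 rose with all clones and 8 did not pass, beside 9.04% of all genes higher, and 5 had all knockout clones above all wild type clones, where 20.7% of all genes did. The number that rose was 2 without knockout E, knockout H or wild type F, and 0 without knockout J, wild type E or wild type I. It was 3 with only genes at or above the median level and 4 with array weights. Fosb, an AP-1 subunit, rose by 3.47 (SE 0.83, limma adjusted p = 0.0330). Fos read 11.65 to 12.79 over the knockout clones and 7.16 to 11.08 over wild type (3.05, SE 0.93, limma adjusted p = 0.0679). Junb and Ier2 differed by 1.36 and 1.08 (limma adjusted p = 0.0596 and 0.0831).

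Of 7 further SRF cofactors, 2 fell, beside 10% of all genes: Gata6, a zinc-finger factor of smooth muscle and heart, by 2.60 (SE 0.58, limma adjusted p = 0.0265) and Elk1, a ternary complex factor, by 0.54 (SE 0.14, limma adjusted p = 0.0443). The number that fell was 0 without knockout J, wild type E or wild type F, 1 without wild type I, with a trended prior or with quantile normalization again, and 3 with array weights. Elk3, a related factor, differed by -0.71 (limma adjusted p = 0.0602). Myocd, myocardin, read 3.03 to 3.23 in knockout clones and 3.63 or higher in wild type (-1.48, limma adjusted p = 0.130), with the knockout clones at the level of the skeletal muscle markers.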

How the data were processed

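RNA of 6 fibroblast clones was measured on 6 Affymetrix arrays, 1 clone each. The authors deposited log2 values per probe set, made with RMA per the submitters' processing notes (version and settings: not given in the sources used here). Wild type clone E carries up to 9 decimals and the others 3. The median of an array lay at 4.51 to 4.54 for knockout and at 4.44 to 4.46 for wild type.

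Of 45101 probe sets, 34945 had 1 gene symbol, 932 several and 9160 none, and 64 were controls. The probe set with the highest mean stood for each of 18193 genes. The test between genotypes used limma 3.58.1 (R 4.3.3; lmFit, eBayes, Benjamini-Hochberg adjustment over all genes, threshold 0.05), after the code was tested on simulated data. Figures and motif matches were made with Python 3.11.15 and matplotlib 3.10.9. The text names all listed genes, Fhl2, and up to 4 genes of each other list with the smallest unadjusted p. The members and lists were chosen with earlier results of these data known. There were 13 alternatives: another prior, other scalings, a level filter, other probe set rules, array weights and each clone left out. Promoter windows came from RefSeq (GRCm38.p6). 1 further gene list is not reported here.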

Additional observations from a re-analysis of the deposited data

How the results depend on the processing

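The medians of the smooth muscle genes (-2.41 to -1.11) and nonmuscle genes (-0.49 to -0.28) kept their sign under all 13 alternatives, and Fhl2 kept its call (-3.42 to -2.77) under the 12 that gave it a value; it had none without probe sets of the x, s and a types. The genes that fell among the 36 numbered 17 with array weights and 2 to 17 with a clone left out. The array weights counted clone H least (0.385, against 1.07 to 1.56 for the other clones). Those that rose numbered 2 with probe sets averaged, 2 without x, s and a probe sets, and 0 to 2 with a clone left out. All genes called numbered 1661 to 4750 with a clone left out. Without x, s and a probe sets the sign turned for Tnnt2 (0.29) and Tpm3 (0.16). With array weights it turned for Smtn (0.13), Synpo2 (-0.36) and Myh11 (-0.33). With a clone left out it turned for genes that had not passed: Actc1 (-0.27 to 0.01), Actg1 (-0.19 to 0.02), Smtn (-0.24 to 0.24), Synpo2 (-0.83 to 1.09), Cald1 (-0.03 to 0.14), Myh11 (-0.70 to 0.97), Tpm1 (-0.57 to 0.01), Srf (-0.33 to 0.09) and Mkl1 (-0.29 to 0.01). The causes were not tested, and fits without a clone have fewer samples. The count of genes with clones E and J below wild type and clone H not was 12 to 16 under alternatives chosen after seeing the data. No paired analysis was possible because the genotypes share a single clone letter, which does not pair them.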
